A study of Mus musculus with 8 samples.

Results

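The 10 genes described here encode the acid-secreting machinery of the gastric parietal cell and a nuclear receptor that regulates it. They were picked by symbol (Atp4a, Atp4b, Kcne2, Kcnq1, Slc26a7, Slc9a4, Slc4a2, Esrrg, Car2 and Aqp4), and all 10 were found among the 23361 genes of the expression table. RNA sequencing had been carried out on 5 cancers of the gastric squamous-columnar junction (SCJ), where the squamous forestomach meets the glandular stomach, and on control tissue of 3 stomachs, taken here to be SCJ. The cancers were Trp53-/-Rb1-/-: they arose in Lgr5eGFP-Ires-CreERT2 Trp53loxP/loxP Rb1loxP/loxP Ai9 mice after tamoxifen, and were cut out along the border of tdTomato fluorescence, which marks the descendants of cells that had switched on Cre. The controls came from wild-type stomachs of mice of paired age, so alleles differed between the groups together with the disease. The study divided these stomachs into forestomach, SCJ and antrum. The samples are titled control tissue, and the methods do not name the compartment of each. The study's methods describe tamoxifen injection of mutant and control mice for tumor induction, without saying whether the sequenced controls were among them. Cre was driven from the Lgr5 locus, and each sample was ground whole, including whatever non-cancer cells lay within it. In such bulk tissue, fewer parietal cells and less RNA per parietal cell cannot be told apart. The study describes the first gland at the SCJ as lacking parietal cells, and does not say which glands lay in the control pieces. Cancers were cut by fluorescence and controls by stomach compartment, so dissection also differed between the groups.

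Parietal cells secrete hydrochloric acid into the gastric glands. The apical pump, a heterodimer of the catalytic Atp4a and the glycosylated Atp4b subunits, exports protons in exchange for potassium, which returns to the lumen through a channel of Kcnq1 with its accessory subunit Kcne2. Car2 generates protons and bicarbonate in the cytosol, the bicarbonate leaves across the basolateral membrane in exchange for chloride, and histamine, gastrin and acetylcholine start the process.

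All 10 genes had lower mean levels in the cancers than in the controls. Of these 10, 5 fell (Kcne2, Slc4a2, Slc26a7, Aqp4 and Esrrg, adjusted p under 0.05 in limma across the table) and 0 rose (0 also at an unadjusted p under 0.05), against a background of 18.3% of the 14357 tested genes lower and 16.2% higher. Both pump subunits had the largest log2 fold changes of the 10, yet did not pass this threshold, and the 5 cancers ranged from no listed expression to 28.1% of the control mean of Atp4a. In 8 of the 10 genes every cancer lay below every control, a pattern found in 19.8% of all tested genes. The median log2 fold change of the 10 genes was -3.07, and that of all tested genes was -0.04. The count of 5 depended on single samples. It was 2 without cancer 3, cancer 5 or any 1 of the controls, where 7.87 to 16.5% of all tested genes were lower. It was 3 without cancer 2 (19.6% of all tested genes), 6 without cancer 1 (15.7%) and 7 without cancer 4 (19.4%).

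Levels are FPKM (fragments per kilobase of transcript, scaled to the mapped fragments) that had been rounded to whole numbers. Fold changes are differences of mean log2(FPKM + 1), cancers minus controls, which understate the change of genes with low values. Sequencing depth is unknown, so a gene without signal is described as listed at 0. The FPKM of a library summed to 403569 to 573858 in the cancers and 887141 to 992550 in the controls. The 10 most abundant genes took 11.1% to 19.6% of the sum of a cancer and 39.3% to 44.3% of that of a control. When every library was rescaled to the same sum (TPM), the median over all genes moved to 0.81 on the log2 scale, with 528 genes lower and 7176 higher against 2622 and 2326 as deposited. The 10 acid secretion genes remained negative, with 3 of them (Kcne2, Slc4a2 and Slc26a7) past the threshold. Samples of a group can be far apart: the chief cell gene Pgc, chosen after its values were seen, is listed at 28832, 0 and 0 in the controls, and whether the zeros are failed estimates was not tested.

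In the mm10 build, Atp4a lies on chromosome 7 from 30712232 to 30725534 (plus strand, 22 exons in its longest transcript) and Atp4b on chromosome 8 from 13386209 to 13396778 (minus strand, 7 exons). Kcnq1 covers 143107254 to 143427042 on chromosome 7 and Kcne2 covers 92292389 to 92298133 on chromosome 16. Slc4a2 occupies 24425232 to 24440947 on chromosome 5, Slc26a7 14505197 to 14621778 on chromosome 4, and Slc9a4 40580227 to 40630731 on chromosome 1. Car2 occupies 14886426 to 14900770 on chromosome 3, and Esrrg 187609006 to 188214884 on chromosome 1. All 10 genes are protein-coding, and the values are summed per gene and do not separate exons or transcripts.

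Because these genes were low in the same cancers, the 250 bases before their transcription starts were examined. RefSeq promoters (GRCm38.p6) were matched for 4 of the 10 genes, Atp4a, Kcne2, Slc4a2 and Esrrg, with 9 start sites in all. Shown are the windows of the catalytic pump subunit and of the channel subunit that fell, and the first window of Esrrg, the only one of the 9 with a match to any of the 3 motifs searched. They are chr7:30711959-30712208, chr16:92292139-92292388 and chr1:187608756-187609005, all on the plus strand and read 5′ to 3′, with the matched letters in capitals.
Atp4a: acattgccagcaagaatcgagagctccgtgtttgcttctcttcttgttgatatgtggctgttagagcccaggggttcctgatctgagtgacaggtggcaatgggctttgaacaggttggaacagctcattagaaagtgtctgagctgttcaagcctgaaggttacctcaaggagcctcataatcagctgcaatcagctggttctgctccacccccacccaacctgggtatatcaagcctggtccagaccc
Kcne2: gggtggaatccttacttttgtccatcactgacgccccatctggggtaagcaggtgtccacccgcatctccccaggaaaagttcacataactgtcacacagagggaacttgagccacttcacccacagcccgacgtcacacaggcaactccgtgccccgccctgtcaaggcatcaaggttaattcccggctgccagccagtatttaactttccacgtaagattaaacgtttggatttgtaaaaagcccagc
Esrrg: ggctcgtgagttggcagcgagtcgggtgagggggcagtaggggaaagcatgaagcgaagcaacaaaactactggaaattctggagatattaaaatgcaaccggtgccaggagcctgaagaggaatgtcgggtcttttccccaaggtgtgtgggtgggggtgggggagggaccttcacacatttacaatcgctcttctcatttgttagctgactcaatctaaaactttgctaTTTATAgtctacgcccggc

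The motifs were AAGGTCA, the half-site bound by estrogen-related receptors, AGATAA, bound by GATA factors, and TATAAA, the TATA box, each searched on both strands. They do not overlap in the windows printed. AAGGTCA was present in 4.08% of the 32817 mouse promoter windows of this length, AGATAA in 9.99% and TATAAA in 12.4%. The capitals in the Esrrg window are TATAAA read on the minus strand, with the leftmost capital as printed at position -19 from the start.

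The proton pump had been among the most abundant transcripts of the control tissue. Atp4a, the catalytic subunit, had FPKM of 1643, 3437 and 3572 in controls 1 to 3 and of 0, 370, 66, 810 and 67 in cancers 1 to 5. Every cancer was below every control, and cancer 4 had the highest value of the cancers while cancer 1 was listed at 0. The mean was 2884 ± 1077 (SD, n = 3) in the controls, rank 17 of all genes, and 263 ± 338 (SD, n = 5) in the cancers, rank 262. The log2 fold change was -5.34 ± 1.98 (SE, adjusted p = 0.068 in limma). The exact permutation test, two-sided here and below, enumerates 56 assignments of 8 samples to 5 and 3 and cannot give a p under 0.018. For Atp4a the exact p was 0.036. Without cancer 1, listed at 0, the log2 fold change was -3.82 (adjusted p = 0.030 in limma), and without cancer 4 the adjusted p was 0.045. These were the 2 of 14 alternatives in which Atp4a passed; in the others its adjusted p reached 0.167, without control 3.

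Atp4b, which carries the pump to the membrane, had 2328, 3906 and 3584 in the controls and 0, 603, 106, 1336 and 41 in the cancers. The groups did not overlap, and the cancers kept the order seen for Atp4a apart from cancers 3 and 5, which lay close together for Atp4a. Its log2 fold change was -5.29 ± 2.14 (SE, adjusted p = 0.088 in limma; exact permutation p = 0.054), and -3.70 without cancer 1, also listed at 0 (adjusted p = 0.059). The log2 ratio of Atp4a to Atp4b within a sample, on FPKM + 1, was -0.50, -0.18 and -0.005 in the controls and 0, -0.70, -0.68, -0.72 and 0.70 in the cancers. These ranges overlapped, and the means of -0.28 ± 0.62 (SD, n = 5) and -0.23 ± 0.25 (SD, n = 3) differed by -0.05 (two-sided exact permutation p = 0.89). In cancer 1 both subunits were listed at 0, so its ratio rests on no signal.

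**Figure D1:**
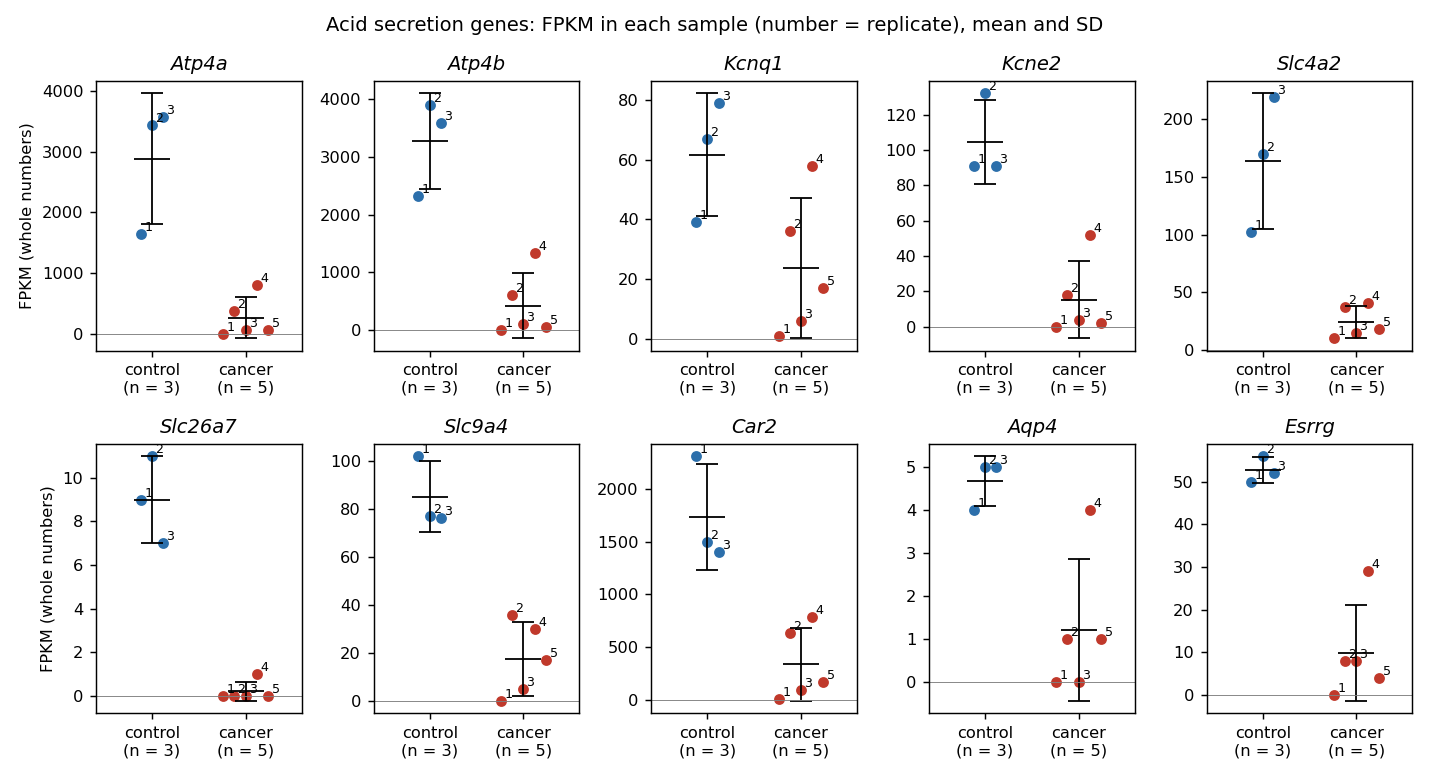
FPKM (vertical axis, linear, a separate scale for each gene) of the 10 acid secretion genes in 3 controls (blue) and 5 cancers (red), with the replicate number beside each point and the mean and SD in black. Cancer 4 is the highest cancer for 9 of the genes, with 810 for Atp4a, and reaches the control range in Kcnq1 at 58 and Aqp4 at 4.

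The channel that recycles potassium to the pump was examined by its subunits and by their ratio. Kcne2, the accessory subunit that keeps the channel open at acidic pH, had 91, 132 and 91 in the controls and 0, 18, 4, 52 and 2 in the cancers. It fell without overlap from 105 ± 23.7 (SD, n = 3) to 15.2 ± 21.8 (SD, n = 5), a log2 fold change of -3.92 ± 1.19 (SE, adjusted p = 0.038 in limma; exact permutation p = 0.036). The log2 fold change was -3.23 without cancer 1. The call was lost without cancer 3, cancer 5 or any 1 of the controls, with adjusted p between 0.076 and 0.112 (limma).

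Kcnq1, the pore-forming subunit, had 39, 67 and 79 in the controls and 1, 36, 6, 58 and 17 in the cancers. The groups overlapped, since cancer 4 exceeded control 1, and the log2 fold change of -2.10 ± 1.05 did not pass the threshold (SE, adjusted p = 0.15 in limma; exact permutation p = 0.107). It was -1.39 without cancer 1. Kcnq1 is also a channel of other epithelia and of heart muscle. It overlaps the antisense RNA Kcnq1ot1, which is listed at 0 in all 8 samples.

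The log2 ratio of Kcnq1 to Kcne2, on FPKM + 1, was -1.20, -0.97 and -0.20 in the controls and 1, 0.96, 0.49, 0.15 and 2.58 in the cancers. Kcnq1 was thus the lower of both subunits in every control and the higher in every cancer. The means were -0.79 ± 0.52 (SD, n = 3) and 1.04 ± 0.93 (SD, n = 5), a difference of 1.83 (two-sided exact permutation p = 0.036, or 0.071 after Benjamini-Hochberg adjustment over the 2 subunit ratios, which does not pass 0.05). The value of cancer 1 rests on FPKM of 1 and 0. The difference was 1.84 without that sample, which allows no p below 0.029 and gave 0.057 in the exact test.

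**Figure D2:**
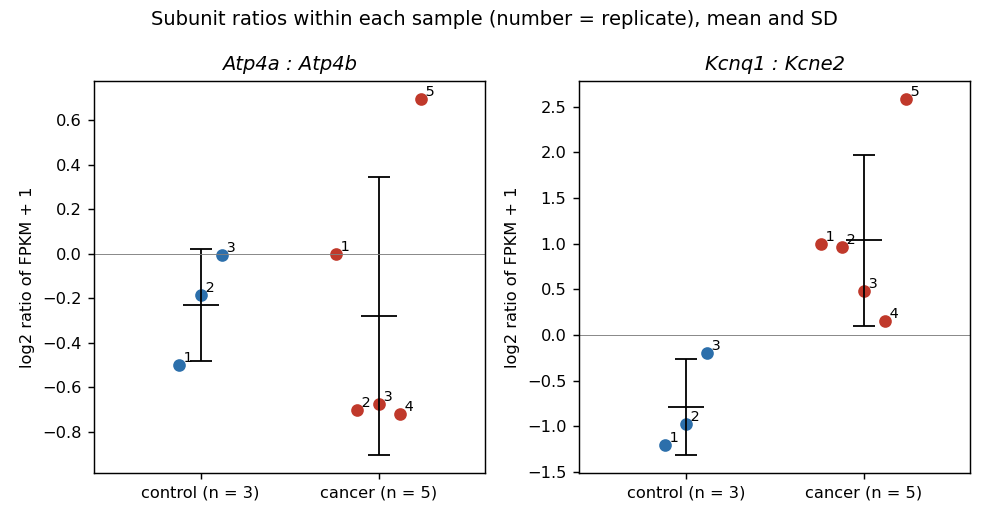
Log2 ratio of FPKM + 1 of the pump subunits (left) and the channel subunits (right) within each of 3 controls (blue) and 5 cancers (red), with the replicate number, the mean and the SD. The ratios of Atp4a to Atp4b overlap between the groups, whereas Kcnq1 to Kcne2 runs from -1.20 to -0.20 in the controls and from 0.15 to 2.58 in the cancers.

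Among the basolateral exchangers were both genes with calls that held in every alternative in which they were tested. Slc4a2 (AE2), the anion exchanger that releases bicarbonate into the blood and brings in chloride, had 102, 170 and 219 in the controls and 10, 37, 15, 41 and 18 in the cancers. The highest cancer, at 41, lay below the lowest control, at 102, and the level fell from 164 ± 58.8 (SD, n = 3) to 24.2 ± 13.9 (SD, n = 5). The log2 fold change was -2.83 ± 0.49 (SE, adjusted p = 0.0058 in limma; exact permutation p = 0.018), and its adjusted p stayed at or below 0.046 in all 14 alternatives. Slc4a2 is expressed in many other cell types, and its value in cancer 1, where 7 of the 10 genes were listed at 0, was 10. Its locus overlaps Fastk on the opposite strand, which had 27, 29 and 43 in the controls and 24, 28, 30, 29 and 23 in the cancers, and reads of both cannot be told apart if counting ignored strand.

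Slc26a7, a basolateral chloride and bicarbonate exchanger, had only 9, 11 and 7 in the controls and 0, 0, 0, 1 and 0 in the cancers. It fell by 3.10 on the log2 scale (SE 0.28, adjusted p = 0.00082 in limma; exact permutation p = 0.018), and passed in all 13 alternatives in which it was tested. All 5 cancers stood at or next to 0, on a scale of whole numbers.

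Slc9a4 (NHE4), the sodium-proton exchanger of the basolateral membrane, had 102, 77 and 76 in the controls and 0, 36, 5, 30 and 17 in the cancers. The groups did not overlap, but the log2 fold change of -3.03 ± 1.13 missed the threshold (SE, adjusted p = 0.071 in limma; exact permutation p = 0.071). Without cancer 1, listed at 0, it was -2.18 and passed (adjusted p = 0.041 in limma).

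Car2, carbonic anhydrase II, was the third most abundant of the 10 genes in the controls, with 2310, 1494 and 1398. It had 11, 633, 92, 784 and 168 in the cancers, below every control. Its log2 fold change of -3.43 ± 1.29 did not pass the threshold (SE, adjusted p = 0.072 in limma; exact permutation p = 0.036). It was -2.51 without cancer 1, and passed without cancer 4 (adjusted p = 0.048 in limma). Unlike the pump, Car2 was still listed in cancer 1 (11), and it is a gene of red blood cells and many epithelia as well.

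Aqp4, a basolateral water channel, was the least abundant, with 4, 5 and 5 in the controls and 0, 1, 0, 4 and 1 in the cancers. Cancer 4 equalled control 1. Aqp4 fell by 1.63 on the log2 scale (SE 0.52, adjusted p = 0.044 in limma; exact permutation p = 0.071), a call made on differences of a few whole units and lost without any 1 sample other than cancer 4, with adjusted p between 0.066 and 0.118 (limma).

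Esrrg encodes estrogen-related receptor gamma, an orphan nuclear receptor required for acid secretion genes and for oxidative metabolism. It was the most uniform of the 10 genes in the controls, with 50, 56 and 52, and had 0, 8, 8, 29 and 4 in the cancers, all below the controls. It fell from 52.7 ± 3.06 (SD, n = 3) to 9.80 ± 11.2 (SD, n = 5), a log2 fold change of -3.03 ± 0.94 (SE, adjusted p = 0.042 in limma; exact permutation p = 0.054). Without cancer 1 the log2 fold change was -2.35. Without cancer 2, 3 or 5, or any 1 of the controls, the adjusted p lay between 0.060 and 0.112 (limma).

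By mean level in the controls, the order was Atp4b (3273), Atp4a (2884), Car2 (1734), Slc4a2 (164), Kcne2 (105), Slc9a4 (85.0), Kcnq1 (61.7), Esrrg (52.7), Slc26a7 (9) and Aqp4 (4.67 FPKM). The ranges of the 3 controls did not overlap between Car2 and Slc4a2, between Esrrg and Slc26a7, or between Slc26a7 and Aqp4. All other neighbours in this order overlapped.

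The cancers differed widely among themselves, and in similar order for most of the 10 genes. As a percentage of the control mean, the median over the 10 genes was 0 in cancer 1, 19.9 in cancer 2, 4.56 in cancer 3, 43.0 in cancer 4 and 8.64 in cancer 5. Cancer 1 had 7 of the 10 listed at 0, and cancer 4 had none. In cancer 4, Atp4a stood at 28.1% of the control mean, Kcne2 at 49.7% and Kcnq1 at 94.1%; with TPM they stood at 47.2, 83.0 and 159%, so that Kcnq1 was above the control mean. With TPM the 5 medians were 0, 32.7, 9.78, 72.4 and 18.3%, in the same order.

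Markers of other gastric cells also varied among the cancers. For the 6 pit and neck mucous cell genes (Muc5ac, Tff1, Gkn1, Gkn2, Muc6 and Tff2), the medians were 0.052, 36.8, 2.68, 26.7 and 8.34% of control in cancers 1 to 5. Their summed FPKM ranged from 146212 to 214340 in the controls and from 691 to 72677 in the cancers. Of the 6, only Gkn1, a secreted protein of pit cells, fell (log2 fold change -3.81, adjusted p = 0.034 in limma), against 18.3% of all tested genes. Its call was lost in 7 of 14 alternatives: without cancer 3 or 5 or any 1 control (adjusted p 0.067 to 0.098), with quantile normalization (-1.70, adjusted p = 0.23) and with the replicate block. Cancer 1 had the lowest and cancers 2 and 4 the highest medians here, as for the acid secretion genes.

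For the 5 squamous genes (Krt5, Krt14, Krt13, Krt4 and Trp63), the medians were 0, 0.60, 44.4, 233 and 34.1% of control. Cancer 1 had all 5 listed at 0, and cancer 2 had almost none despite the second highest acid secretion median. The sums were 1533 to 2572 in the controls and 0 to 1588 in the cancers. Krt4, a keratin of upper squamous layers, was the 1 of the 5 that fell (log2 fold change -4.99, adjusted p = 0.044 in limma), against 18.3% of all tested genes. This call was lost in 10 of 14 alternatives, among them TPM (adjusted p = 0.056) and leaving out cancer 1, 2 or 3 or any 1 control (0.051 to 0.123).

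The 4 smooth muscle genes (Acta2, Myh11, Des and Tagln) had medians of 12.6, 376, 108, 77.0 and 17.2% of control, with sums of 276 to 367 in the controls and 41 to 1135 in the cancers. None of them passed the threshold, or an unadjusted p under 0.05 in limma, Acta2 having a log2 fold change of -0.63 and Tagln of -0.73, and all 4 reversed sign with TPM. Of the 4 pan-epithelial genes, Krt8 (log2 fold change -2.02, adjusted p = 0.045 in limma) and Cdh1 (-1.78, adjusted p = 0.012) fell, whereas Epcam rose (1.17, adjusted p = 0.0092), against 18.3% of all tested genes lower and 16.2% higher. The call of Krt8 was lost with TPM (-1.05, adjusted p = 0.11 in limma) and without cancer 1, 3 or 5 or any 1 control (0.061 to 0.139), and that of Cdh1 without control 1 (0.051); with TPM Cdh1 was at -0.81 and Epcam at 2.15. Their sums were 3157 to 4577 in the controls and 712 to 2812 in the cancers.

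Of the 5 endocrine genes, Chgb, Chga and Syp rose, against 16.2% of all tested genes, with log2 fold changes of 8.30, 6.0 and 3.02 (adjusted p = 0.00036, 0.00068 and 0.0020 in limma). Ghrl went the other way, below every control in every cancer without passing the threshold (-4.97, adjusted p = 0.095 in limma), and Hdc, the enzyme that makes histamine, had 7, 7 and 6 in the controls and 2, 6, 2, 171 and 58 in the cancers (adjusted p = 0.62). Their sums were 2347 to 3629 in the controls and 7931 to 16726 in the cancers. Among the 5 chief cell genes, Bhlha15, a transcription factor of secretory cells, fell (-1.55, adjusted p = 0.046 in limma) with overlap between the groups, against 18.3% of all tested genes, and 4 did not pass. Of these 4, Gif and Pga5 had negative log2 fold changes (-5.68 and -3.13) and Pgc and Lipf positive ones (4.05 and 1.41). The positive value of Pgc rests on controls 2 and 3, listed at 0. Its mean FPKM was lower in the cancers (2472) than in the controls (9611). The Bhlha15 call was lost in 10 of 14 alternatives, among them TPM (-0.72, adjusted p = 0.32 in limma) and leaving out cancer 2, 3 or 4 or control 2 or 3 (0.073 to 0.159). The chief cell sums were 3462 to 31485 in the controls and 18 to 7310 in the cancers. Without Pgc they were 2653 to 5046 and 15 to 548, which do not overlap. Of the 5, Gif alone was below every control in every cancer, with 2581, 4982 and 3374 in the controls and 0, 520, 36, 434 and 178 in the cancers, whereas Pga5 had 111 in cancer 4 against 63, 47 and 62 in the controls. The part of any of these cell types in the level of the acid secretion genes was not tested.

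**Figure D3:**
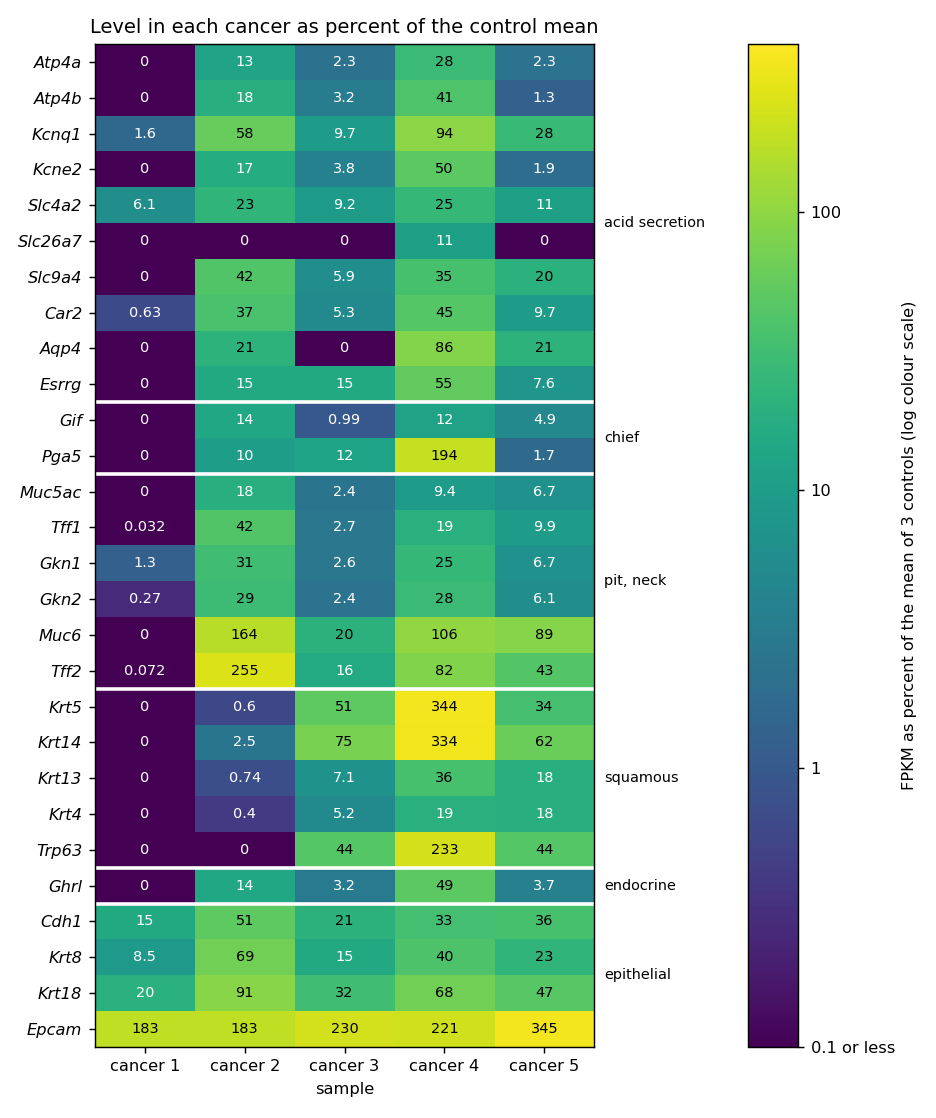
FPKM of each gene (rows) in each of the 5 cancers (columns) as a percentage of the mean of the 3 controls, printed in each cell and coloured on a log scale that is cut at 0.1 and 400. The endocrine row is Ghrl alone. Chga, Chgb and Syp, which rose, and Hdc are not shown. The chief cell rows are Gif and Pga5, without Pgc, Lipf and Bhlha15, and smooth muscle genes are not shown. The median of the acid secretion genes at the top is lowest in cancer 1, at 0, and highest in cancer 4, at 43.0%, while the squamous genes stand at a median of 0.60% in cancer 2 and 233% in cancer 4.

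Among all tested genes, the pattern most like that of Atp4a over the 8 samples, by Pearson's r of log2(FPKM + 1), was that of Lrig3 (0.994), followed by Ghrl (0.993), Gsdma2 (0.992), Clic6 (0.991) and Tmem125 (0.991), with the 10 acid secretion genes left out of this ranking. Lrig3 and Tmem125 had low values in whole units. Lrig3 had 5, 6 and 6 in the controls and 0, 3, 2, 5 and 2 in the cancers, cancer 4 equalling control 1. Tmem125 had 10, 10 and 13 against 0, 5, 2, 6 and 3. Atp4b had an r of 0.993, second of the 14356 other genes, and Slc26a7 had the lowest r of the 10, 0.757. Both groups enter these values, so the difference between cancers and controls enters every r. Ghrl, which encodes ghrelin, a hormone of gastric endocrine cells, had 2526, 2160 and 3471 in the controls and 0, 381, 86, 1330 and 100 in the cancers. Its values thus followed the order of cancers 1, 3, 5, 2 and 4, like those of Atp4a.

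Of 15 further ion transport genes of the parietal cell, 13 were tested and 10 fell, against 18.3% of all tested genes, their median being -1.91 on the log2 scale. Under TPM 6 fell and 2 rose, where 3.68% of all tested genes were lower and 50.0% higher. Without any 1 of the controls 2 or 3 fell (7.87 to 9.09% of all genes), and without cancer 3 it was 6 (12.1%). Kcnj16 and Kcnj15 encode inward rectifier potassium channels. Kcnj16 had 63, 85 and 79 in the controls and 0, 6, 1, 11 and 1 in the cancers (log2 fold change -4.57, adjusted p = 0.0055 in limma), and Kcnj15 had 106, 121 and 128 against 0, 15, 3, 30 and 8 (-4.07, adjusted p = 0.020). Both were thus below every control in every cancer, and highest in cancer 4. Without any 1 control Kcnj15 did not pass (adjusted p 0.064 to 0.067 in limma).

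Clic6, a chloride intracellular channel protein, had 221, 405 and 371 in the controls and 0, 55, 10, 92 and 11 in the cancers (-4.45, adjusted p = 0.039 in limma). Without overlap, it followed the cancers in the order seen for the pump. Its call was lost without cancer 3 or 5 or any 1 control (adjusted p 0.074 to 0.112 in limma).

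Acid secretion needs tubulovesicles, the membranes that carry the pump, to fuse with the apical surface. Of 16 genes of this traffic, 9 fell and 2 rose (median log2 fold change -1.15), against 18.3% of all tested genes lower and 16.2% higher. With TPM 3 fell and 3 rose, against 3.68% lower and 50.0% higher, and 4 fell without control 1 (7.87% of all genes). Ezr, which encodes ezrin, a linker of actin to the apical membrane of parietal cells, had 452, 528 and 555 in the controls and 47, 185, 58, 210 and 112 in the cancers (-2.29, adjusted p = 0.015 in limma; 0.051 and 0.054 without control 2 or 3). Rab27b, a small GTPase of secretory vesicles, fell by 1.99 on the log2 scale (adjusted p = 0.015 in limma; 0.0642 and 0.0503 without control 1 or 2). Snap25, a membrane fusion protein of neurons and endocrine cells, rose from 1, 2 and 2 to 73, 33, 91, 68 and 79 (4.66, adjusted p = 0.00041 in limma). The other gene that rose, Vamp2, another such protein, had a log2 fold change of 1.22 (adjusted p = 0.026 in limma; 0.052 to 0.104 without cancer 1 or 3 or control 1 or 2) and was chosen after its values were seen.

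Among 7 receptors that stimulate or inhibit secretion, 4 fell and 1 rose (median -1.49), against 18.3% of all tested genes lower and 16.2% higher, with 2 that fell under TPM (3.68% of all genes) or without control 2 (8.44%). Hrh2, the histamine receptor of parietal cells, had 10, 12 and 15 in the controls and 1, 1, 0, 3 and 1 in the cancers (-2.72, adjusted p = 0.0033 in limma). Sstr2, the inhibitory somatostatin receptor, had 6, 8 and 14 against 1, 2, 1, 2 and 1 (-2.06, adjusted p = 0.0028 in limma). Neither overlapped between the groups. Casr, the calcium-sensing receptor, was listed at 0 in all 3 controls and at 4, 2, 2, 2 and 8 in the cancers (adjusted p = 0.0074 in limma).

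The estrogen-related receptors other than Esrrg and their coactivators gave 3 that fell of 4 tested (median -1.78), against 18.3% of all tested genes, and 1 with TPM (3.68% of all genes), without control 1 (7.87%) or without control 3 (9.09%). Esrra had 58, 53 and 90 in the controls and 4, 34, 10, 30 and 19 in the cancers (-2.01, adjusted p = 0.044 in limma). Esrrb had 2, 4 and 4 against 0, 1, 0, 0 and 0 (-1.88, adjusted p = 0.0043), and the coactivator Ppargc1b had 5, 5 and 9 against 1, 2, 0, 2 and 2 (-1.68, adjusted p = 0.019). All 3 were lower in every cancer than in every control. The Esrra call was lost in 9 of 14 alternatives, among them leaving out cancer 3 or 5 or any 1 control (adjusted p 0.069 to 0.136 in limma), and that of Ppargc1b without control 1 or 3 (0.052 and 0.074).

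**Figure D4:**
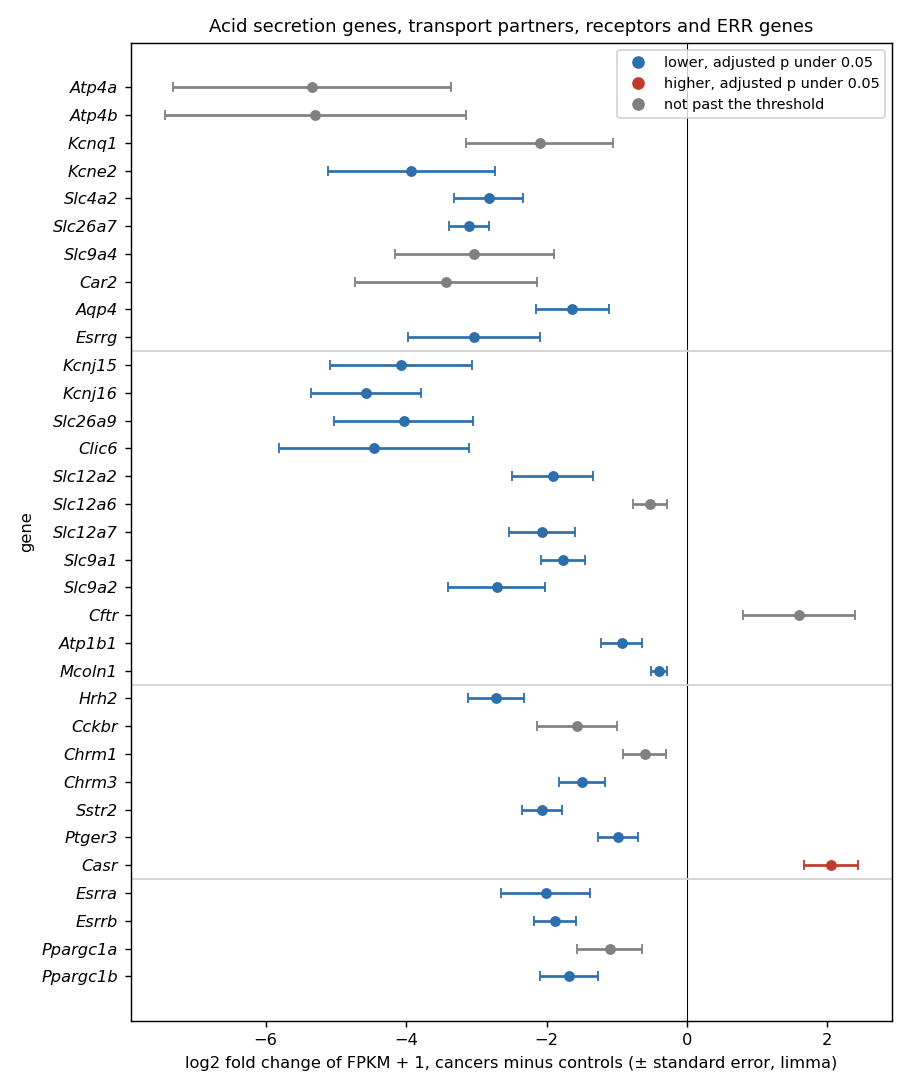
Log2 fold change of FPKM + 1 (cancers minus controls, horizontal axis) with its standard error in limma for the 10 acid secretion genes and, below, their transport partners, receptors and estrogen-related receptor genes. Points are coloured by whether the adjusted p was under 0.05; the 10 acid secretion genes lie between -5.34 and -1.63, and Casr, at the right, is the only gene shown that rose past the threshold, its fitted value depending on the pseudocount since all 3 controls are at 0.

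Of 62 paralogs of the 10 genes listed, 61 were in the table and 38 were tested. Of these, 11 fell (28.9%, against 18.3% of all genes), 6 rose (15.8%, against 16.2%) and 21 did not pass, with a median log2 fold change of 0.07. Under TPM 3 fell (7.89%, against 3.68%) and 14 rose (36.8%, against 50.0%). Without any 1 of the controls 3 or 4 fell, where 7.87 to 9.09% of all tested genes were lower. Car9 (log2 fold change -3.22, adjusted p = 0.038 in limma) and Car13 (-2.68, adjusted p = 0.018), further carbonic anhydrases, fell. The call of Car9 was lost without cancer 3 or 5 or any 1 control (adjusted p 0.055 to 0.111 in limma) and that of Car13 without control 1 or 2 (0.072 and 0.060). Atp12a, the non-gastric relative of Atp4a, was listed at 0 in all 8 samples.

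Further Kcne genes, whose proteins can also pair with Kcnq1, were chosen after their values were seen. Kcne1, the cardiac accessory subunit, had 8, 6 and 11 in the controls and 0, 1, 0, 5 and 0 in the cancers (-2.47, adjusted p = 0.020 in limma; 0.051 to 0.076 without any 1 control). Kcne3, which holds the channel open in intestinal and airway epithelia, had 1, 2 and 1 in the controls and 2, 96, 10, 29 and 14 in the cancers. Its log2 fold change of 2.90 ± 0.98 did not pass the threshold (SE, adjusted p = 0.054 in limma), and was 3.81 with TPM (adjusted p = 0.0082). Kcne3 was above every control in 4 cancers and equal to control 2 in cancer 1, and exceeded Kcne2 in 4 of the 5 cancers. Kcne4 rose, listed at 0 in all 3 controls and at 2, 2, 1, 1 and 1 in the cancers (adjusted p = 0.0043 in limma; 0.090 with quantile normalization).

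Several of these genes are neighbours in the genome. Kcne2, Kcne1 and Clic6 lie on chromosome 16, with 47867 bases between Kcne2 and Kcne1 (92346001 to 92359468) and 200013 bases between Kcne2 and Clic6 (92498147 to 92541241). Of the genes between them, Rcan1 had 43, 36 and 52 in the controls and 7, 18, 10, 23 and 18 in the cancers (adjusted p = 0.017 in limma; 0.059 to 0.066 without control 1 or 3), while Smim11 overlapped between the groups (adjusted p = 0.34). Both are named for their position. Slc9a4 is followed after 50980 bases by its relative Slc9a2 (40681712 to 40768885 on chromosome 1), which had 68, 49 and 63 in the controls and 2, 30, 4, 11 and 11 in the cancers (-2.71, adjusted p = 0.022 in limma; 0.051 to 0.078 without cancer 3 or any 1 control).

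Car2 lies on chromosome 3 in a cluster with Car13, Car1 and Car3. Of these, Car13 fell and, like Car2, was below every control in every cancer, Car1 was listed at 0 throughout, and Car3, 14052 bases from Car2, was listed at 0 in the controls and at 181, 5, 2, 0 and 0 in the cancers (adjusted p = 0.28 in limma). Cancer 1 thus had the highest Car3 and the lowest Car2 of the 5. These neighbours were chosen after their values were seen.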

How the data were processed

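Poly(A)-selected RNA from 5 cancers and 3 control tissues had been sequenced. The authors trimmed reads with cutadapt 1.8, ran cuffquant on the annotated genes of UCSC mm10 and derived FPKM by cuffnorm 2.2.1; the labels' processing notes also name TopHat2 2.0.13. The cuffnorm normalization option and the strand setting of counting are not given in the sources used here. The authors deposited FPKM as whole numbers, here handled as a score, never as counts. All 23361 genes and 8 columns were read. Nothing states the number of reads, so depth is unknown.

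A gene entered the fit when 3 or more samples reached an FPKM of 1, which 14357 genes did, all 10 acid secretion genes among them. The trend version of eBayes after lmFit (limma 3.58.1, R 4.3.3) was applied to log2(FPKM + 1), and p-values were adjusted by Benjamini-Hochberg, 0.05 being the limit. The fit was tested on simulated data. Single values were also compared by two-sided exact permutation over 56 assignments. No batch is given in the labels. The controls were separate stomachs; whether each cancer came from a mouse of its own is not stated, so their spread may in part lie within animals. The genes and lists were chosen with earlier results of these data known. Genes named are the 10, up to 3 called genes of each list with the largest change (or 2 of the most abundant where none was called) and the 5 most like Atp4a; others are marked as chosen later, and some genes that this rule names are not reported here. Alternatives were another pseudocount, other filters, TPM, quantile normalization, a replicate block and leaving out each sample. The replicate block in effect compares cancers 1 to 3 with controls 1 to 3, the numbers found in both groups. The paralog Slc26a8 was not analysed here. Replicate numbers did not pair the samples (correlations of deviations -0.02, -0.19 and -0.10).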

Additional observations from a re-analysis of the deposited data

Results flagged for a closer look

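Each of the 10 acid secretion genes and both subunit ratios, 12 results in all, was examined for a cancer that stood apart from the other 4; chance marks about 0.6 of 12. On log2(FPKM + 1), Slc26a7 was the only 1: cancer 4 was listed at 1 and the others at 0, so that the gap was the whole range (ratio 1.0, where 0.71 is the critical value for 5 samples). The gap is a single whole unit of rounded FPKM. On the FPKM as deposited, a scale added after the data were seen, cancer 4 also stood above the other cancers for Esrrg (29 against 0, 8, 8 and 4, ratio 0.72) and Aqp4 (4 against 0, 1, 0 and 1, ratio 0.75). Cancer 4 was also the highest cancer for 8 of the other 9 genes.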

How the results depend on the processing

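All 10 acid secretion genes stayed negative in every alternative in which they were tested, and 0 rose in any. Slc26a7 and Slc4a2 passed the threshold throughout. Of the comparisons of the 10 genes across alternatives, 109 kept their side of it, 25 lost the call, 4 gained one and 0 changed sign; for the other genes named by rule these were 274, 83, 0 and 2. With TPM, 7704 genes were called (4948 as deposited), 528 lower and 7176 higher; the acid secretion genes that fell were 3, transport partners 6 (2 rose), traffic genes 3, receptors 2 and estrogen-related receptor genes 1, and Acta2 (0.32) and Tagln (0.23) changed sign. With a pseudocount of 0.1, 2 acid secretion genes and 1 estrogen-related receptor gene fell, against 16.3% of all tested genes. The Kcnq1 to Kcne2 difference there was 2.44 (exact permutation p = 0.054). A mean FPKM of at least 5 drops Slc26a7 and Aqp4. With this filter 24.9% of the tested genes were lower and 13.6% (1244) higher. Of the listed genes, 3 acid secretion genes, 1 receptor (0 rose) and 1 estrogen-related receptor gene fell. Quantile normalization let 1 transport partner rise, against 13.2% of all tested genes. The replicate block, although the numbers pair no samples, gave 1534 calls (552 lower, 982 higher, or 3.84% and 6.84% of tested genes). In it 3 acid secretion genes, 1 transport partner, 1 traffic gene (1 rose) and 1 receptor fell. Cancers 4 and 5 share their number with no control, so this fit compared cancers 1 to 3 with controls 1 to 3. The cause of these shifts was not tested.

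Leaving out each sample in turn gave 2490 to 5252 calls (1121 to 2786 lower, 1369 to 2466 higher). The shares of tested genes were 7.87 to 19.6% lower and 9.6 to 17.4% higher. Of the acid secretion genes 2 to 7 fell, and of the transport partners 2 to 10. Among traffic genes 4 to 11 fell (1 to 2 rose), among receptors 2 to 5 and among estrogen-related receptor genes 1 to 3. The Kcnq1 to Kcne2 difference ran from 1.44 to 2.12. It lost p under 0.05 without cancer 1, 2 or 3 (exact permutation p = 0.057) or control 1 or 2 (0.143 and 0.095). The Atp4a to Atp4b difference ran from -0.29 to 0.063, being 0.055, 0.048 and 0.060 without cancers 2, 3 and 4 and 0.063 without control 3. Unknown depth and rounding to whole FPKM limit Slc26a7, Aqp4 and other low genes most.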
